A study of Homo sapiens with 6 samples.

Results

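The genes described here encode the enzymes that make purine and pyrimidine nucleotides, taken as a list of 34 gene symbols and matched to their Ensembl identifiers. All 34 were among the 20036 genes of the deposited table, and 31 of them had a mean of at least 1 FPKM (fragments scaled by gene length and by the library's total) and were tested with 9868 genes in all. RNA-seq was done on MV411, a monocytic leukaemia cell line that carries a KMT2A rearrangement and a FLT3 internal duplication and whose genotype is labelled WT. Cells received corilagin, a plant ellagitannin, or DMSO as the control for 48 h, with 3 libraries per group at 17776956 to 21640689 fragments each. All 6 libraries come from this single line, and no corilagin dose was found in the labels. Whether replicates were separate cultures is not stated either, so each p-value covers the spread among these libraries alone, and that spread may be technical.

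Purines are built stepwise on ribose phosphate, which the PRPS enzymes supply as phosphoribosyl pyrophosphate (PRPP). PPAT, GART, PFAS, PAICS, ADSL and ATIC then carry PRPP to inosine monophosphate (IMP), from which separate branches lead to AMP and GMP. Pyrimidines are built as a ring first, by CAD, DHODH and UMPS, and CTPS enzymes turn UTP into CTP. Salvage enzymes such as HPRT1, APRT, ADK, DCK and the thymidine and uridine kinases reuse bases and nucleosides, and further kinases bring monophosphates to the triphosphates used for RNA and DNA. Proliferating blood and leukaemia cells are known to depend on the de novo routes, and inhibitors of IMPDH, DHODH and GART are used or studied as drugs.

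After corilagin, some but not all de novo enzymes of both routes had lower mRNA levels in MV411 cells, relative to each library's total. CAD, which performs the opening reactions of pyrimidine synthesis, fell to 0.502 of its DMSO level, PFAS to 0.512, ATIC to 0.568 and DHODH to 0.565. IMPDH1, GART and CTPS1 fell to 0.603, 0.737 and 0.773, and outside the de novo routes NME1 and APRT fell to 0.452 and 0.559. The members that rose were PRPSAP2 (1.33-fold) and ADK (1.39-fold). In all, limma (2-sided, Benjamini-Hochberg adjusted p under 0.05 over all genes tested) called 9 of 31 tested members lower and 2 higher, where 13.5% of all tested genes were called lower and 11.9% higher. The de novo steps after PRPP held 7 of the 9 falls among 13 tested members and no rise, and the other 18 tested members held 2 falls and 2 rises. The median log2 difference was -0.18 over the members and 0.03 over all tested genes.

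The libraries themselves differed by the GC content of transcripts, and this touched many members. Among the eighth of tested genes with the lowest GC content, the median deviation from the gene mean was -0.50 and -0.43 log2 units in DMSO replicates 1 and 2, against 0.24 in DMSO replicate 3 and 0.21 to 0.26 in the corilagin libraries. Values are therefore also given for many members after the trend on GC content was removed from every library, or against DMSO replicate 3 alone. With the trend removed 16 members were lower and 4 higher (23.2% and 21.8% of all tested genes). All 11 members called in the values as deposited kept their call and direction with the trend removed. Against DMSO replicate 3 alone 12 were lower and 4 higher (18.6% and 19.4% of all tested genes). That fit has 1 DMSO library, which is assumed to vary like the corilagin libraries that give all of its spread, so its differences are given below as values without a p. Without DMSO replicate 3, 18 members were lower and 9 higher (36.5% and 40.8% of all tested genes), and there treatment and the GC difference cannot be told apart. Of the 13 markers set for the line, 12 had a mean of at least 1 FPKM, all but CD14. HBB, EPCAM, KRT19, MS4A1 and COL1A2 were at 0 in every library, while PECAM1 was present beside little or no CDH5.

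**Figure D1:**
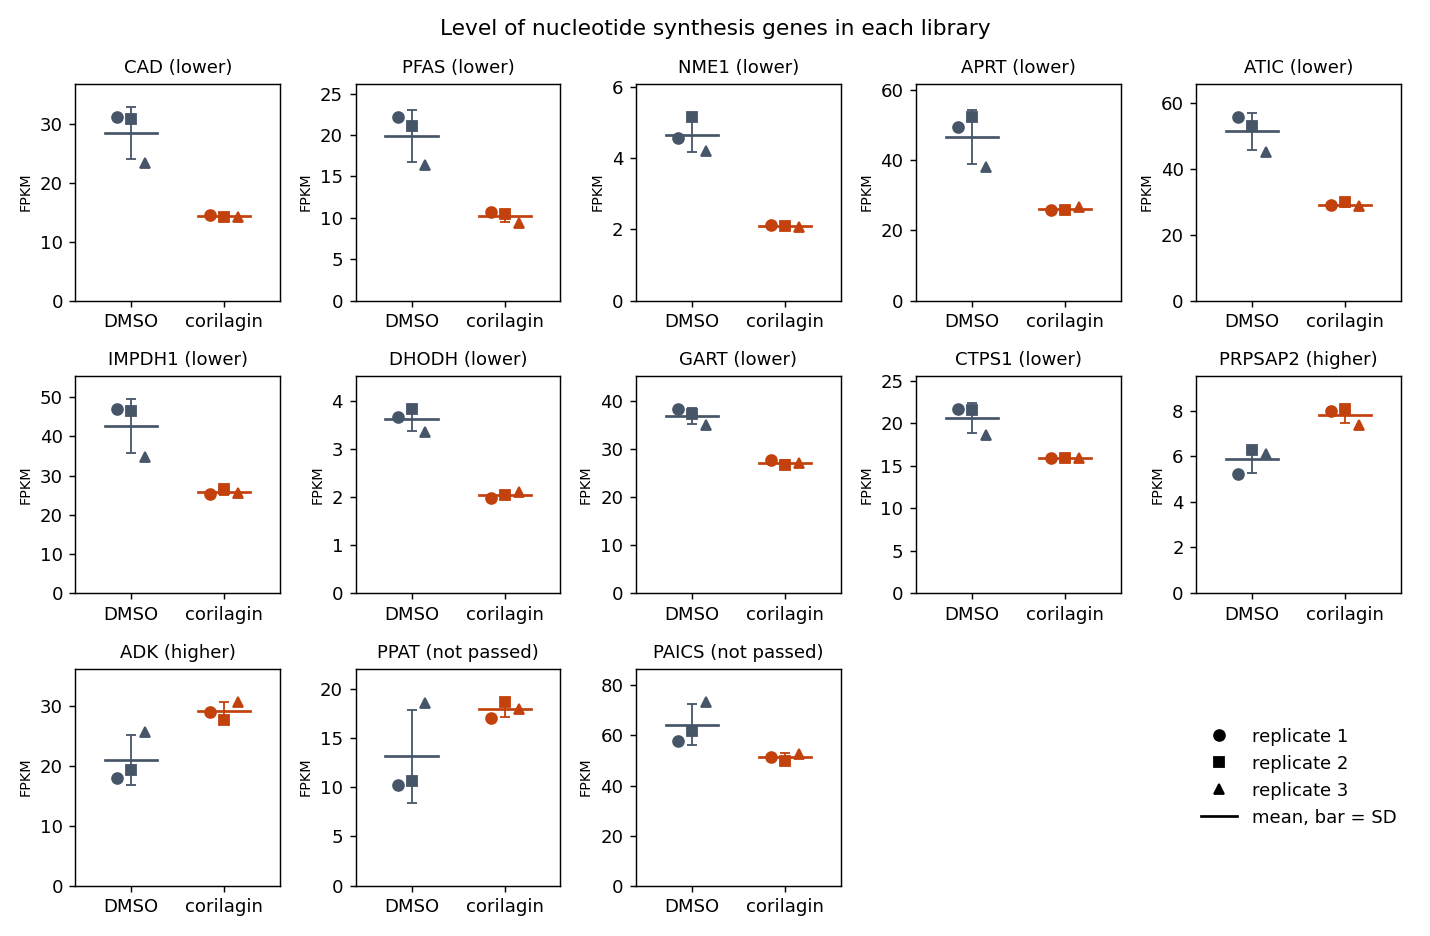
Level in FPKM (vertical axes, each starting at 0) of the 11 members that passed the test and of the divergent pair PPAT and PAICS in 3 DMSO and 3 corilagin libraries; marker shapes give the replicate, lines the mean and bars the SD. Corilagin and DMSO libraries do not overlap for any of the 11, and for PPAT the third DMSO library, at 18.5 FPKM, lies among the corilagin libraries.

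Of 5 tested genes of the steps from PRPP to IMP, 3 fell, where 13.5% of all tested genes were called lower. PFAS, a glutamine-using enzyme of these steps (ENSG00000178921, GRCh38 chromosome 17, 8247618 to 8270491, plus strand), was at 10.7, 10.5 and 9.39 FPKM in corilagin replicates 1, 2 and 3 and at 22.2, 21.1 and 16.4 FPKM in the DMSO replicates. Every corilagin library lay below every DMSO library, and the third DMSO library was the lowest of its group. The log2 difference, on the log2(FPKM + 1) scale as for all fitted differences below, was -0.89 (SE 0.126, limma adjusted p = 0.00653). It was -0.72 with the GC trend removed and -0.64 against DMSO replicate 3 alone. ATIC, the bifunctional enzyme that closes the purine ring (ENSG00000138363, chromosome 2, 215311817 to 215349773, plus strand), was at 28.9, 29.8 and 28.8 FPKM after corilagin and 55.9, 53.1 and 45.2 FPKM in DMSO. The corilagin libraries lay close together and well below the lowest DMSO library (log2 difference -0.79, SE 0.0955, limma adjusted p = 0.00399). The difference of ATIC was -0.74 with the GC trend removed and -0.62 against DMSO replicate 3 alone. GART, which holds 3 activities of the pathway in a single protein (ENSG00000159131, chromosome 21, 33503931 to 33543491, minus strand), was at 27.7, 26.6 and 27.1 FPKM after corilagin and 38.2, 37.1 and 35.1 FPKM in DMSO. Its groups did not overlap either, with a smaller difference of -0.43 (limma adjusted p = 0.0115). It was -0.48 with the GC trend removed and -0.36 against DMSO replicate 3 alone. GART and PFAS overlap SON and CTC1 on the opposite strand, and since the labels do not say that strand was kept, reads in the overlaps cannot be told apart.

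PPAT and PAICS, neighbours that start 125 bases apart on opposite strands of chromosome 4, had different patterns over the libraries. PPAT, the amidotransferase that commits PRPP to purines, was at 17.0, 18.7 and 18.0 FPKM after corilagin and at 10.3, 10.6 and 18.5 FPKM in DMSO. DMSO replicates 1 and 2 were low and the third DMSO library was as high as the corilagin libraries, so the groups overlapped and the gene did not pass (log2 difference 0.47, limma adjusted p = 0.121, and 0.02 with the GC trend removed, adjusted p = 0.777). PAICS, the bifunctional carboxylase and synthetase, was at 51.5, 49.9 and 52.8 FPKM after corilagin and at 57.6, 61.7 and 73.5 FPKM in DMSO. All corilagin libraries lay below all DMSO libraries, yet the difference of -0.31 missed the threshold as deposited (adjusted p = 0.0617). PAICS passed after GC trend removal (-0.56, limma adjusted p = 8.6e-05) and with median-of-ratios scaling (adjusted p = 0.0381), and its difference against DMSO replicate 3 alone was -0.51. The ratio of PPAT to PAICS, chosen after its values were seen and not tested, was 0.331, 0.374 and 0.340 in the corilagin libraries and 0.178, 0.171 and 0.252 in the DMSO libraries. PPAT transcripts are 37.9% GC and PAICS transcripts 42.3%. ADSL, adenylosuccinate lyase, had a mean of 0.891 FPKM after corilagin and 1.057 FPKM in DMSO, from 192 to 285 fragments per library. It was below the filter, and it overlaps SGSM3 on the same strand in GENCODE 29, so its level is uncertain.

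The stretch between the starts of PPAT and PAICS is shown because the pair shares it, and the stretches before the starts of PFAS and CAD because these enzymes had the largest falls on each route. Sequences are from RefSeq (GRCh38.p14), run 5′ to 3′ on the strand of the named gene, and are limited to bases outside GENCODE 29 exons. They cover chr4:56435616-56435740 (minus strand) for PPAT, chr17:8249039-8249285 (plus strand) for PFAS and chr2:27217179-27217368 (plus strand) for CAD. The PFAS stretch precedes a RefSeq start but lies within the GENCODE 29 span of the gene, which begins at 8247618.
PPAT: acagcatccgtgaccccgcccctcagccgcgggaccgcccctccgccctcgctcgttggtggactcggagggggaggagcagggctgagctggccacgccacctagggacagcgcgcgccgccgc
PFAS: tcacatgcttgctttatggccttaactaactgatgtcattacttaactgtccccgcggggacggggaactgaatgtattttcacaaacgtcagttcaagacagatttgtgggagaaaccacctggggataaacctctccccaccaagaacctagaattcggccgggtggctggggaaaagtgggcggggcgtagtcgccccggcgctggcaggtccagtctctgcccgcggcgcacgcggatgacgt
CAD: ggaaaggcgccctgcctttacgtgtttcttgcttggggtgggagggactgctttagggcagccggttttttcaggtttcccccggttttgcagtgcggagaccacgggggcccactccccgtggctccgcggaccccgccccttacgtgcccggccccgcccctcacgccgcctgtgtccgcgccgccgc
None of these stretches holds the E-box CACGTG, a motif that MYC and related factors are known to bind and that reads the same on both strands. Exons and bases after the starts were left out of the stretches, so a match elsewhere in these genes is not excluded. Promoter windows of 300 bases (250 before and 50 after a RefSeq start) were found for 32 of the 34 members, and 6 of these 32 (18.8%) had the motif in at least 1 of their windows, against 8.77% of all 27305 symbols. By window, 11.3% of the 53 member windows and 7.26% of all 35116 windows held it. Of the 9 members called lower, 3 had a match (ATIC, DHODH and NME1), and the other members with a match were PPAT, PAICS and DCK, which did not pass. The matches are shown with up to 10 bases on either side and the motif in capitals, so that members that passed can be read beside members that did not. Those of PPAT, NME1 and DCK, and the PPAT stretch above, were chosen after their values were seen.
ATIC, first base at -46: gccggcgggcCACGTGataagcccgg
ATIC, first base at +30: cctacctgcgCACGTGgtgccgccgc
DHODH, first base at -159: cgctactgcgCACGTGcacccaacca
NME1, first base at +35: tgctgcgaacCACGTGggtcccgggc
PPAT, first base at -182: cggagatttcCACGTGcagcaaatac
DCK, first base at -116: ccccggccttCACGTGacctggcgtg
Positions count from the RefSeq start of each gene, with no position 0. The PPAT and PAICS windows overlap and share a single match, at chr4:56435792-56435797, which lies at +41 of PAICS. The matches listed lie in or overlap annotated exons in GENCODE 29, that of PPAT an exon of PAICS, and the match of DHODH begins before the annotated start of the gene. MYC mRNA itself was at 25.6, 24.5 and 28.3 FPKM after corilagin and 69.9, 66.2 and 59.2 FPKM in DMSO (log2 difference -1.28, limma adjusted p = 0.00117). MYC was low in every corilagin library, and its part in the members' differences was not tested.

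The branches from IMP to AMP and GMP were less uniform. IMPDH1, which makes the GMP precursor from IMP (ENSG00000106348, chromosome 7, 128392277 to 128410252, minus strand), was at 25.3, 26.5 and 25.5 FPKM after corilagin and 46.9, 46.4 and 34.7 FPKM in DMSO. The groups did not overlap, and the third DMSO library lay nearest to corilagin (log2 difference -0.69, limma adjusted p = 0.0128, and -0.42 against that library alone). GMPS, which aminates that product to GMP, was at 35.8, 36.1 and 37.0 FPKM after corilagin and 30.7, 31.5 and 37.3 FPKM in DMSO. Its groups overlapped and it did not pass (adjusted p = 0.297), while with the GC trend removed its difference turned from 0.13 to -0.19 (limma adjusted p = 0.0440). ADSS2, on the branch to AMP, was at 20.4, 22.1 and 23.1 FPKM after corilagin and 15.6, 16.8 and 24.3 FPKM in DMSO, with no call as deposited (adjusted p = 0.293) or with the trend removed (adjusted p = 0.620). IMPDH2, the isoform that usually prevails in proliferating cells, was listed at a mean of 0.892 FPKM after corilagin and 0.815 FPKM in DMSO, from 56 to 100 fragments per library. That low value was not tested against any other source, and no level of IMPDH2 is inferred from it.

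**Figure D2:**
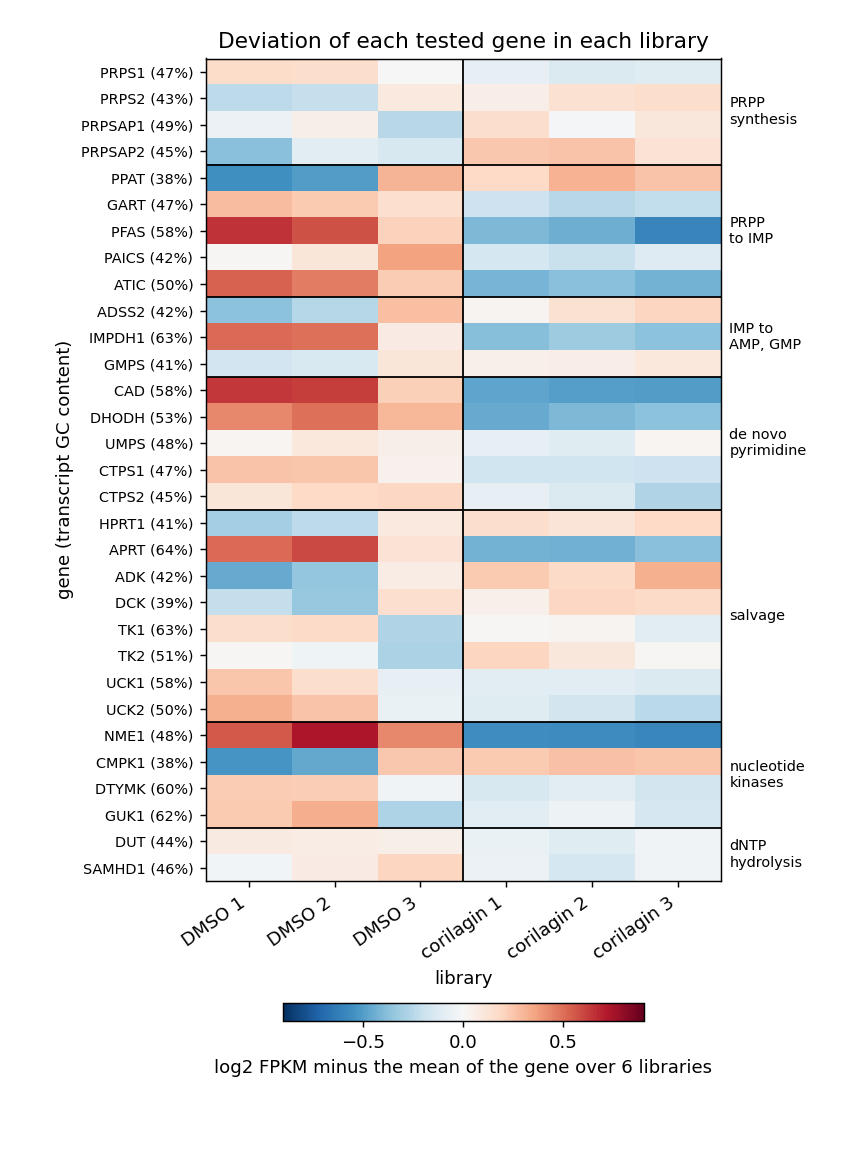
Deviation of each of the 31 tested members (rows, with transcript GC content) from its own mean over the 6 libraries (columns), in log2 FPKM units, grouped by role; red is above and blue below the mean. CAD, PFAS, ATIC, DHODH, APRT, IMPDH1 and NME1 are red in all 3 DMSO libraries and blue in all 3 corilagin libraries, while for PPAT, CMPK1 and ADSS2 DMSO replicate 3 has the colour of the corilagin libraries.

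On the pyrimidine route the opening enzymes fell. CAD, which joins the first 3 activities of the route in a single protein (ENSG00000084774, chromosome 2, 27217390 to 27243943, plus strand), was at 14.5, 14.2 and 14.2 FPKM after corilagin and 31.2, 30.9 and 23.4 FPKM in DMSO. The corilagin libraries differed from each other by little, and all lay below the lowest DMSO library (log2 difference -0.93, SE 0.120, limma adjusted p = 0.00467). The difference was -0.77 with the GC trend removed and -0.67 against DMSO replicate 3 alone. DHODH, the mitochondrial enzyme that passes electrons to ubiquinone (ENSG00000102967, chromosome 16, 72008588 to 72027664, plus strand), was at 1.98, 2.05 and 2.1 FPKM after corilagin and 3.67, 3.82 and 3.34 FPKM in DMSO, from 266 to 531 fragments per library. Its groups stood apart despite the low level (log2 difference -0.60, SE 0.0779, limma adjusted p = 0.00479). It was -0.50 with the GC trend removed and -0.51 against DMSO replicate 3 alone. UMPS, which makes UMP, was at 12.4, 12.2 and 13.3 FPKM after corilagin and 13.2, 13.98 and 13.6 FPKM in DMSO. These groups overlapped, and its difference of -0.10 did not pass as deposited (adjusted p = 0.329) or with the GC trend removed (adjusted p = 0.136). CTPS1, the CTP synthase that activated lymphocytes rely on (ENSG00000171793, chromosome 1, 40979335 to 41012565, plus strand), was at 15.9, 16.0 and 15.9 FPKM after corilagin and 21.6, 21.5 and 18.6 FPKM in DMSO. The fall of CTPS1 was smaller than that of CAD, with no overlap between groups (log2 difference -0.35, limma adjusted p = 0.0301, and -0.21 against DMSO replicate 3 alone). Its isozyme CTPS2 was at 3.82, 3.69 and 3.34 FPKM after corilagin and 4.33, 4.56 and 4.59 FPKM in DMSO. Its groups stood apart, but it missed the threshold (log2 difference -0.25, adjusted p = 0.0573) and passed after GC trend removal (-0.36, limma adjusted p = 0.00331) and with median-of-ratios scaling (adjusted p = 0.040).

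Of the 4 genes of PRPP supply, 1 was called higher and none lower as deposited, where 11.9% and 13.5% of all tested genes were. With the GC trend removed 1 was higher and 1 lower (21.8% and 23.2% of all tested genes). PRPSAP2, a regulatory protein that associates with the PRPP synthetases (ENSG00000141127, chromosome 17, 18840085 to 18931287, plus strand), was at 7.99, 8.06 and 7.38 FPKM after corilagin and 5.20, 6.29 and 6.11 FPKM in DMSO. Every corilagin library was above every DMSO library (log2 difference 0.36, limma adjusted p = 0.0338, and 0.26 with the GC trend removed, adjusted p = 0.0180). The synthetases themselves did not pass as deposited. PRPS1 was at 25.2, 24.2 and 24.6 FPKM after corilagin and 29.7, 29.6 and 26.5 FPKM in DMSO (log2 difference -0.20, adjusted p = 0.0924, and -0.23 with the trend removed, limma adjusted p = 0.0128). PRPS2 was at 38.5, 40.7 and 41.2 FPKM after corilagin and 31.4, 32.1 and 39.4 FPKM in DMSO (log2 difference 0.23, adjusted p = 0.126). For PRPS1 the groups stood apart, whereas for PRPS2 the third DMSO library lay within the corilagin range. PRPSAP1, the other associated protein, had means of 7.80 and 6.98 FPKM with overlap between groups (adjusted p = 0.272). Of these 4 genes, PRPS2 had the highest level per gene length in both groups and PRPSAP1 and PRPSAP2 the lowest.

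Of 8 salvage enzymes, 1 was called lower, 1 higher and 6 did not pass, where 13.5% of all tested genes were lower and 11.9% higher. With the GC trend removed 2 were lower and 3 higher (23.2% and 21.8% of all tested genes). APRT, which turns adenine into AMP (ENSG00000198931, chromosome 16, 88809339 to 88811944, minus strand), was at 25.8, 25.7 and 26.7 FPKM after corilagin and 49.3, 52.3 and 38.0 FPKM in DMSO. All corilagin libraries lay below DMSO, and the third DMSO library was nearest to them (log2 difference -0.80, limma adjusted p = 0.00812, and -0.53 against that library alone). ADK, which phosphorylates adenosine (ENSG00000156110, chromosome 10, 74151185 to 74709303, plus strand), was at 28.99, 27.7 and 30.7 FPKM after corilagin and 18.0, 19.3 and 25.7 FPKM in DMSO. It was higher in every corilagin library than in any DMSO library (log2 difference 0.47, limma adjusted p = 0.0439), but its difference was 0.19 with the GC trend removed and 0.17 against DMSO replicate 3 alone, and its call was lost with median-of-ratios scaling (adjusted p = 0.0504). HPRT1, which salvages hypoxanthine and guanine, was at 79.6, 77.6 and 81.1 FPKM after corilagin and 57.8, 60.6 and 76.0 FPKM in DMSO. Its groups stood just apart without a call (adjusted p = 0.0811), and with the GC trend removed the difference was -0.04.

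TK1, the thymidine kinase of cells in S phase, was among the most highly expressed members, at 124, 125 and 115 FPKM after corilagin and 137, 139 and 102 FPKM in DMSO. DMSO replicate 3 was the lowest of all 6 libraries and the other DMSO libraries the highest (log2 difference -0.04, adjusted p = 0.808). The sign turned after GC trend removal (0.18, limma adjusted p = 0.0236), and the difference was 0.25 against DMSO replicate 3 alone. DCK, which phosphorylates deoxycytidine and activates cytarabine, had means of 36.1 FPKM after corilagin and 30.2 FPKM in DMSO, with overlap (adjusted p = 0.157, and -0.15 with the GC trend removed). UCK1 and UCK2, the uridine and cytidine kinases, had means of 13.3 and 12.4 FPKM after corilagin and 15.6 and 15.9 FPKM in DMSO. Neither passed as deposited (adjusted p = 0.139 and 0.0696), and UCK2 passed after GC trend removal (-0.28, limma adjusted p = 0.0160). The mitochondrial thymidine kinase TK2 was low, at means of 1.95 and 1.70 FPKM (adjusted p = 0.242), and passed with the trend removed (0.20, limma adjusted p = 0.0308).

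**Figure D3:**
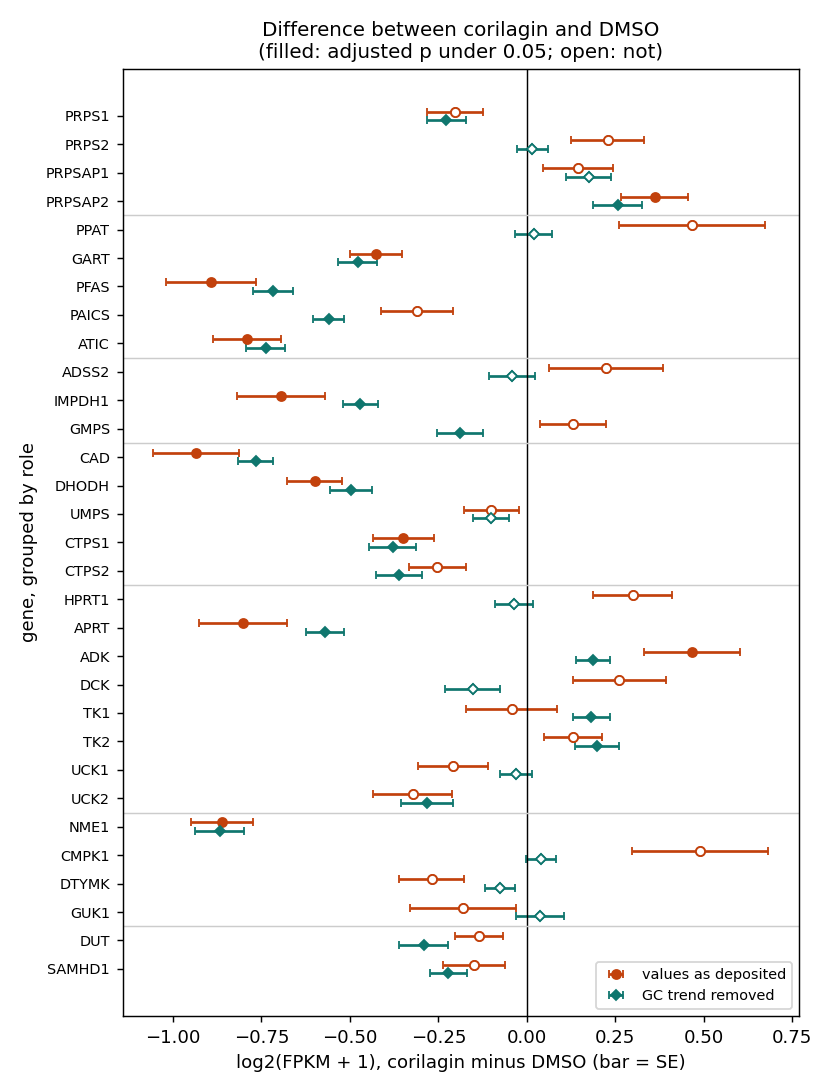
Fitted difference of corilagin minus DMSO on the log2(FPKM + 1) scale (horizontal axis, bars show the SE) for the 31 tested members grouped by role, for values as deposited (circles) and with the GC trend removed (diamonds); filled symbols have an adjusted p under 0.05. CAD, PFAS, ATIC and NME1 stay beyond -0.7 in both, while PPAT moves from 0.47 to 0.02 and CMPK1 from 0.49 to 0.04.

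Among nucleotide kinases, NME1, a nucleoside diphosphate kinase that refills triphosphates (ENSG00000239672, chromosome 17, 51153536 to 51162428, plus strand), was at 2.12, 2.11 and 2.08 FPKM after corilagin and 4.57, 5.17 and 4.22 FPKM in DMSO. This was the lowest ratio of any tested member (0.452, log2 difference -0.86, SE 0.0877, limma adjusted p = 0.00256), and it changed little with the GC trend removed (-0.87). NME1 and NME2 lie inside the read-through gene NME1-NME2, which was listed at 0 in every library, and NME1 rested on 130 to 354 fragments. How reads shared with that gene were assigned is not stated, so the level of NME1 is uncertain. NME2 was below the filter, with 19 to 51 fragments per library. CMPK1, the UMP and CMP kinase, was at 86.8, 88.7 and 87.7 FPKM after corilagin and 51.2, 53.7 and 87.4 FPKM in DMSO. The third DMSO library was level with the corilagin libraries, and no call was made (log2 difference 0.49, adjusted p = 0.0924, and 0.01 against that library alone). DTYMK, which phosphorylates dTMP, was at 37.3, 38.5 and 36.8 FPKM after corilagin and 48.2, 48.1 and 40.3 FPKM in DMSO, without overlap but short of the threshold (adjusted p = 0.0679, and -0.08 with the trend removed). GUK1, the GMP kinase, had means of 13.1 and 15.2 FPKM with overlap (adjusted p = 0.363).

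DUT and SAMHD1, which hydrolyse dUTP and deoxynucleoside triphosphates, differed little. DUT was at 71.1, 68.8 and 72.5 FPKM after corilagin and 78.5, 77.8 and 77.2 FPKM in DMSO, and SAMHD1 at 12.4, 11.6 and 12.6 FPKM and 12.7, 13.6 and 14.7 FPKM. Both had every corilagin library below every DMSO library and neither passed as deposited (log2 differences -0.13 and -0.15, adjusted p = 0.154 and 0.216). With the GC trend removed both passed (-0.29 and -0.22, limma adjusted p = 0.0106 and 0.0104). Over all tested members, 17 lay below DMSO in every corilagin library and 3 above, where 23.3% and 25.0% of all tested genes did so, and 11 overlapped.

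**Figure D4:**
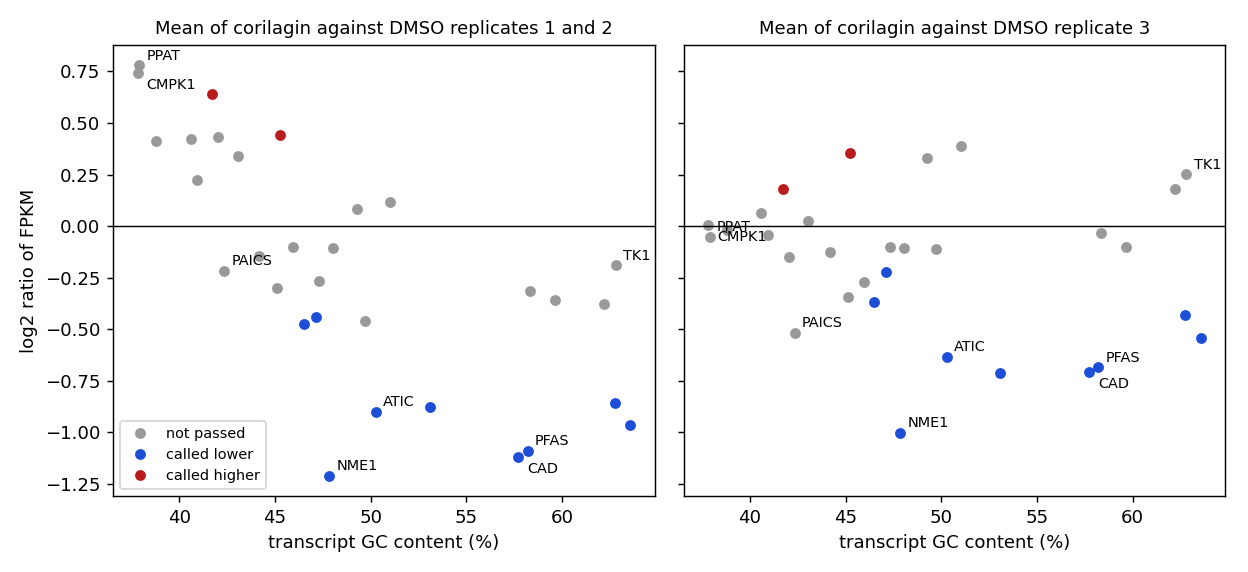
Log2 ratio of the corilagin mean FPKM to DMSO replicates 1 and 2 (left) or to DMSO replicate 3 (right) against transcript GC content in percent, each point a tested member, coloured by its call in all 6 libraries. In the left panel many members of low GC content lie above 0, but not all, with PAICS and DUT below it. PPAT and CMPK1 are highest there. In the right panel PPAT and CMPK1 lie near 0 while CAD, PFAS, ATIC and NME1 remain among the lowest.

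Members called lower ranged from 46.5 to 63.6% GC (median 53.1%), those called higher were at 41.7 and 45.2%, and those that did not pass had a median of 45.5%, beside 48.8% for all tested genes. The plot of ratios against GC content shows the members that depend on the choice of DMSO library. PPAT, CMPK1, DCK and ADSS2 were higher than DMSO replicates 1 and 2 and close to DMSO replicate 3, while CAD, PFAS, ATIC, DHODH and NME1 were lower than either. These 5 kept their call whichever library was left out, with adjusted p up to 0.0477 (PFAS, limma). The call of APRT was lost without any one corilagin library (adjusted p up to 0.0532). GART and IMPDH1 lost theirs without DMSO replicate 2 or any one corilagin library (up to 0.0741 and 0.0710). CTPS1, PRPSAP2 and ADK lost theirs when any single library but DMSO replicate 3 was left out (up to 0.128, 0.136 and 0.159).

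Pairs of isozymes were compared by the ratio of their FPKM within each library, which does not depend on library scaling. Of 7 pairs, 4 had ratios that did not overlap between groups, and each had p = 0.1 by exact permutation, 2-sided (adjusted p = 0.175), the smallest value that 3 against 3 libraries allow. PRPS1 to PRPS2 was 0.616 ± 0.0336 after corilagin and 0.847 ± 0.153 in DMSO (SD, n = 3 per group), where the third DMSO library, at 0.671, was nearest to corilagin. UCK1 to UCK2 was 1.07 ± 0.0403 and 0.981 ± 0.0300, and TK1 to TK2 was 62.2 ± 2.46 and 73.9 ± 5.18. The IMPDH1 to IMPDH2 ratio was 29.2 ± 3.61 and 53.0 ± 5.01, but its denominator rests on the low listed values of IMPDH2. The smallest difference was that of CTPS1 to CTPS2, at 4.42 ± 0.298 and 4.59 ± 0.485 (exact permutation p = 0.8). The remaining pairs, NME1 to NME2 and PRPSAP1 to PRPSAP2, gave exact permutation p of 0.2 and 0.3. These ratios can still follow the GC trend, and they were not recomputed with it removed. In the fits with the trend removed, TK1 and TK2 had similar log2 differences (0.18 and 0.20, against -0.04 and 0.13 as deposited). UCK1 and UCK2 stood further apart (-0.031 and -0.28, against -0.21 and -0.32). PRPS1 and PRPS2 stood closer (-0.23 and 0.02, against -0.20 and 0.23). IMPDH2 was not tested.

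Genes that supply or take up nucleotides were counted in lists beside the members. Of all tested genes, 13.5% were called lower and 11.9% higher, and 23.2% and 21.8% with the GC trend removed. Of 10 tested genes of folate-dependent carbon supply, 3 were lower and 1 higher (5 and 3 with the GC trend removed). MTHFD1L, the mitochondrial formate producer, fell from 19.8 ± 1.70 to 11.6 ± 0.530 FPKM, and the folate carrier SLC19A1 from 5.39 ± 1.07 to 3.12 ± 0.0742 FPKM (SD, n = 3), while MTHFD2, the enzyme upstream of MTHFD1L in mitochondria, rose from 17.8 ± 0.512 to 28.7 ± 1.42 FPKM. MTHFD1L and MTHFD2 thus changed in opposite directions (log2 differences -0.72 and 0.65, limma adjusted p = 0.00451 and 0.00373), and both calls held whichever library was left out. Of 9 genes of ribose phosphate and glutamine supply, 3 were lower and none higher as deposited, and 5 lower and 2 higher with the GC trend removed. RPIA, which makes ribose 5-phosphate, fell from 25.9 ± 1.384 to 16.1 ± 0.741 FPKM, and TALDO1, transaldolase, from 120 ± 18.5 to 82.1 ± 1.87 FPKM. The genes higher with the trend removed, named after their values were seen, were PGD (0.34) and the glutamine carrier SLC1A5 (0.45), neither of which passed as deposited.

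Of 8 deoxynucleotide synthesis genes, 2 were lower and 2 higher (3 and 3 with the GC trend removed). For this and the next lists, 13.5% of all tested genes were lower and 11.9% higher (23.2% and 21.8% with the trend removed). DCTPP1, which clears modified dCTP, fell from 34.3 ± 4.74 to 18.9 ± 1.058 FPKM and DCTD, dCMP deaminase, from 33.8 ± 2.58 to 26.9 ± 0.868 FPKM. The ribonucleotide reductase subunit RRM2 rose from 69.5 ± 0.945 to 88.1 ± 0.594 FPKM, and the alternative subunit RRM2B rose as well, by 0.58 after GC trend removal (limma adjusted p = 0.000874) in place of 1.08 as deposited. RRM2B was at 13.4, 15.0 and 30.2 FPKM in DMSO replicates 1, 2 and 3, and its difference against the third alone was 0.39. Both nucleoside transporters that passed, SLC29A1 and SLC28A3, fell (0.664 and 0.717 of DMSO), of 4 tested. With the GC trend removed SLC29A2, named after its values were seen, was higher as well (0.46, limma adjusted p = 0.0215). In the list of other nucleotide kinases, 3 of 6 fell, among them NME3 (0.646 of DMSO), and NME6 rose 1.36-fold (5 lower and 1 higher with the trend removed). Of 17 breakdown and nucleotidase genes, 4 were lower and 2 higher (7 and 2 with the trend removed). NT5C, a deoxyribonucleotidase, fell to 0.602 and TYMP, thymidine phosphorylase, to 0.667 of DMSO, while UPP1, uridine phosphorylase, rose 1.80-fold and NT5C2, a purine nucleotidase, 1.35-fold. The calls of NT5C and NT5C2 ended after GC trend removal (limma adjusted p = 0.0546 and 0.0533). So did that of NT5M, a mitochondrial nucleotidase named after its values were seen, whose difference moved from -0.39 to -0.14 (adjusted p = 0.366).

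Genes of DNA replication and the cell cycle were listed as markers of proliferation, and 4 of 23 were lower and 2 higher, with a median log2 difference of -0.02 (9 lower and 6 higher with the GC trend removed, median -0.13). The shares over all tested genes were 13.5% lower and 11.9% higher, and 23.2% and 21.8% with the trend removed. CCNB1, the mitotic cyclin, fell from 73.5 ± 2.11 to 55.1 ± 3.99 FPKM, and the helicase subunit MCM7 from 164 ± 24.1 to 120 ± 4.66 FPKM. CCNE2, a cyclin of S-phase entry, rose 1.91-fold and the origin licensing factor CDC6 1.29-fold. CCNE2 was at 4.80, 5.55 and 11.3 FPKM in the DMSO libraries, and its log2 difference of 0.93 was 0.44 with the GC trend removed and 0.26 against DMSO replicate 3 alone. The markers MKI67 and TOP2A, named after their values were seen, did not pass as deposited. In DMSO MKI67 was at 33.8, 37.6 and 59.0 FPKM and TOP2A at 45.8, 48.2 and 132 FPKM. Their means after corilagin were 64.2 and 132 FPKM. Their differences were 0.60 and 0.58 with the GC trend removed and 0.12 and 0.01 against DMSO replicate 3 alone. Without that library, 9 of the 23 genes were higher and 12 lower (40.8% and 36.5% of all tested genes). The part of the cell cycle in the members' differences was not tested.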

How the data were processed

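RNA-seq of MV411 cells was summarised by the authors as 1 table of FPKM, and the deposited columns carry the library names of the labels. The submitters' processing notes name fastp 0.22.0, HISAT2 2.1.0, HTSeq 0.9.1 and DESeq 1.38.3 with GRCh38, without settings. FPKM divides by gene length and library total, so highly expressed genes shift the others and reads in overlapping genes may be lost. Whole fragments, gene lengths and library totals were recovered from the steps of the values for 15921 genes above 0.

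limma 3.58.1 (R 4.3.3; lmFit, eBayes with trend) was run on log2(FPKM + 1) for the 9868 genes averaging 1 FPKM or more, without covariates. Symbols were matched for 20011 identifiers, and coordinates and GC content came from GENCODE 29. The GC trend was removed per library with a natural spline of 5 degrees of freedom over 9859 genes, which also removes any true difference that follows GC content. On data simulated for this comparison (9867 genes tested), the test called 82 of 99 genes set to a 1.5-fold change. It called 96 of 96 set to a 2-fold change and 18 of 9672 set to none. Recovery in the presence of the GC difference among the DMSO libraries was not tested. No libraries were identical, and the closest had a chi-square of 2.59 per gene. By this measure DMSO replicate 3 was nearer to the corilagin libraries (27.8 to 32.2) than to DMSO replicates 1 and 2 (107 and 85.1).

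Members, lists and tests were chosen with earlier results of these data known. The rule for named genes gives values in every library for members that passed and for up to 2 tested members per role that did not, the most expressed first, and in each other list up to 2 rises and 2 falls, largest difference first. A few listed genes are not reported here. Alternatives were pseudocounts of 0.1 and 0.5, other filters and scalings, a replicate block, limma-voom on the recovered fragments and leaving out each library; the comparison with DMSO replicate 3 alone was chosen after seeing the data.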

Additional observations from a re-analysis of the deposited data

How the results depend on the processing

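The 9 falls and 2 rises among the members were the same genes with pseudocounts of 0.1 and 0.5, with FPKM rescaled to equal sums per library and in limma-voom on the recovered fragments. Without a filter on low values no member was called higher, and with median-of-ratios scaling 1 was. With the GC trend removed 4 were higher and 16 lower, of 2151 and 2287 genes in all, and against DMSO replicate 3 alone, a lone library assumed to vary like the corilagin libraries, 4 were higher, of 1916 genes. Members called higher numbered 0 to 9 and lower 5 to 18 when single libraries were left out, all genes 131 to 4030 and 176 to 3597, with the highest counts without DMSO replicate 3. With a mean of at least 5 FPKM, 713 genes were higher. Equal sums gave 1620 higher and 1059 lower genes beside 1171 and 1331, and moved the median of all tested genes from 0.03 to 0.14.

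The replicate number as a block left the same 2 rises and 9 falls; with the GC trend removed as well it gave 3 and 16, of 2154 and 2237 genes. Numbers were not taken as pairs, since the labels do not say what a number shares. Deviations of same-numbered libraries correlated at 0.28, 0.079 and 0.339 as deposited, and at 0.096, 0.016 and 0.113 with the GC trend removed. As deposited, the corilagin libraries each correlated best with their own number, but DMSO replicate 2 correlated best with corilagin replicate 1 (0.279).

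The members' median of -0.18 was -0.15 with the filter at 5 FPKM, -0.066 with equal sums, -0.23 with median-of-ratios scaling, -0.10 against DMSO replicate 3 alone and -0.21 to -0.14 without single libraries. Signs turned for members without a call: with the GC trend removed, with or without the block, for ADSS2 (-0.041), GMPS (-0.19), HPRT1 (-0.036), DCK (-0.15), TK1 (0.18) and GUK1 (0.039); against DMSO replicate 3 alone for PPAT (-0.050), ADSS2 (-0.15), GMPS (-0.040), DCK (-0.018), TK1 (0.25) and GUK1 (0.17); with equal sums for UMPS (0.012) and TK1 (0.078); and for TK1 without DMSO replicates 1 or 2, where leaving out single libraries gave -0.19 to 0.034. The log2 ratio of CTPS1 to CTPS2 turned without DMSO replicate 1 (0.012). The cause of these changes was not tested. ADSL, IMPDH2 and NME2, with 19 to 285 fragments per library, were under the filter of 1 FPKM.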
